A study of Mus musculus with 6 samples.

Results

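Macrophage marker genes were followed in the gastrocnemius muscle of mice bearing C26 tumors and of control mice. The 10 genes, Cd68, Csf1r, Mrc1, Cd163, Lyz2, Adgre1, Itgam, Tyrobp, Fcer1g and Cd14, were chosen by symbol, and all 10 were found by Entrez ID among the 13363 genes with deposited values. The C26 group held 3 muscles of Balb/c mice inoculated under the skin of the flank with 500000 C26 cells, cells of a murine colon adenocarcinoma used to induce cachexia, and the control group held 3 muscles of Balb/c mice without a tumor. The mice were male and 6 weeks old at purchase. The labels number the replicates without saying that each is another mouse, so the p-values measure the spread between these samples. Each value is an FPKM, fragments scaled to transcript length and to the reads of the library, so that the levels of different genes can be set side by side.

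Macrophages are phagocytes that live in skeletal muscle between the fibers and take up debris, iron and dying cells. Their survival depends on the receptor Csf1r and its ligands Csf1 and Il34, and many of their surface receptors signal through the small adaptors Tyrobp (DAP12) and Fcer1g, which carry tyrosine motifs called ITAMs. Whole muscle holds few of them beside the fibers, and in bulk RNA fewer macrophages cannot be told apart from less RNA of a gene per macrophage.

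The tissue label was checked first. The fiber genes Ckm and Tnnt3 had 14314 to 26160 and 16658 to 25946 FPKM over the 6 muscles, although the extraction text of the labels also names THP-1 cells, a human monocyte line. Control replicate 3 stood apart from the other libraries. The summed level of the 10 pan-leukocyte markers, in scaled TPM, was 1226 there, 22.9 and 35.0 in the other controls and 12.2 to 22.8 in the C26 muscles. Of 12 B cell markers 2 were in the file, and their summed level was 306 in control replicate 3 against 0.340 to 2.67 in the other 5 muscles. The B cell receptor gene Cd79b alone had 134 FPKM in that muscle and at most 0.82 in the others. Of the pan-leukocyte, B cell and T and NK cell markers 0 were called between the groups by limma, and 0 had an unadjusted p under 0.05. The part of these cells in the results was not tested, and each of the 10 markers is also given without this muscle.

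Over the 10 macrophage markers no common rise or fall was seen. With limma and Benjamini-Hochberg adjustment over all genes, Tyrobp was called lower at an adjusted p below 0.05, so that 1 of the 10 markers fell and 0 rose. Among all genes, 14.5% were called lower, 19.4% higher and 33.8% in either direction. At an unadjusted p under 0.05, 2 markers were higher (Cd68 and Cd163) and 2 were lower (Csf1r and Tyrobp), against 25.1% and 22.0% of all genes. The median log2 fold change of the 10 was -0.17, beside -0.05 for all genes, and it was 0.0023 without control replicate 3, 0.17 with quantile normalization and -0.46 over the 8 markers with a mean TPM of at least 1. The mean log2 level of the 10 markers was 2.61 ± 0.50 (SD, n = 3) in C26 and 2.58 ± 0.39 (SD, n = 3) in control muscles. After scaling, 2 of the 10 markers had no overlap between C26 and control values, beside 53.5% of all genes. It was 1 higher (Cd68) and 1 lower (Tyrobp), beside 27.0% and 26.5% of all genes. The shares of markers called, and of those without overlap, were thus below the shares of all genes.

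**Figure D1:**
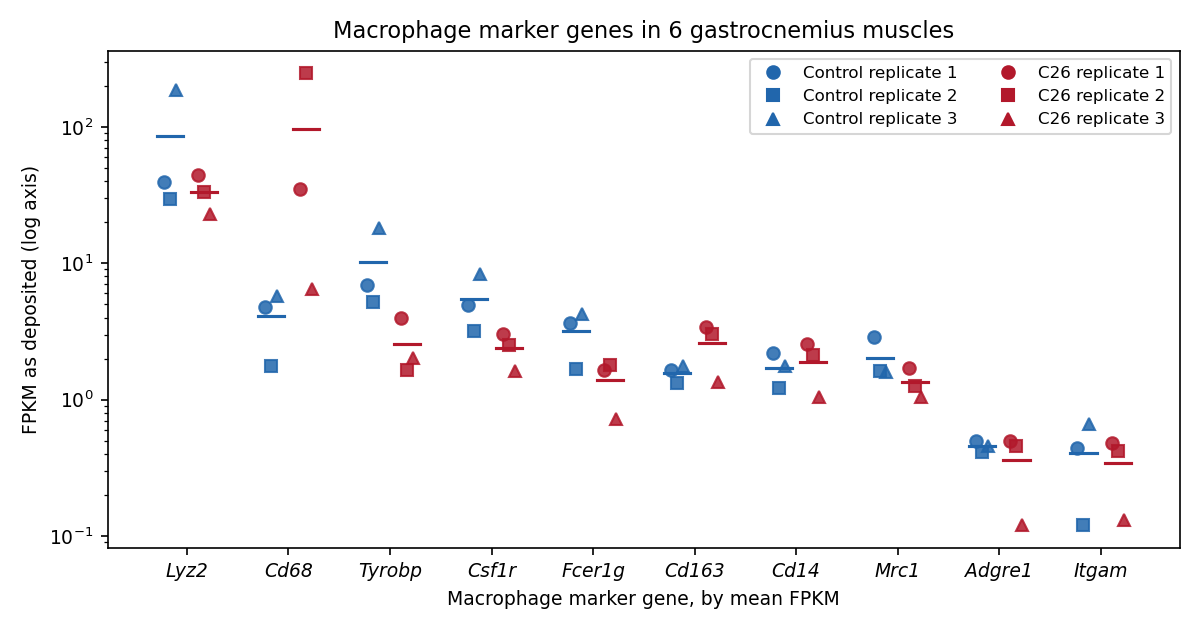
FPKM of the 10 macrophage marker genes (log axis) in each of the 3 control (blue) and 3 C26 (red) muscles, one symbol per replicate, with a line at the group mean. Cd68 reached 247 FPKM in C26 replicate 2 and 6.46 in C26 replicate 3, while Lyz2 was highest in control replicate 3, at 188 FPKM.

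The phagolysosomal membrane glycoprotein Cd68, the usual stain for macrophages in muscle sections, differed most. Its FPKM were 34.9, 247 and 6.46 in C26 replicates 1 to 3 and 4.75, 1.75 and 5.77 in control replicates 1 to 3. Every C26 value was above every control value, but the lowest C26 value exceeded the highest control value by little, and the C26 muscles spanned a 38.2-fold range. The log2 fold change was 3.40 (SE 1.18, 95% interval 0.57 to 6.22, adjusted p = 0.0653 from limma), 10.5-fold on the scale of TPM plus 1, and it did not pass the test. It was 2.10 without C26 replicate 2, 4.69 without C26 replicate 3 (adjusted p = 0.0106 from limma) and 3.64 without control replicate 3. With each muscle left out the adjusted p ran from 0.0106 to 0.157 (limma).

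The size of its change set Cd68 apart from the other 9 markers. The likeness of 2 genes was measured as the root mean square difference (RMS) of their log2 values, each centred over the 6 muscles and not scaled, so that it counts the size of a change as well as its shape. In the 9 pairs that include Cd68 the RMS lay between 1.89 (with Cd163) and 2.92 (with Tyrobp). In the 36 pairs without it the largest was 1.19 and the median 0.52. Since Adgre1 and Itgam lay near or under the added constant of 1 TPM, their profiles are flattened. The gene outside the markers nearest to Cd68 was Mustn1, a gene of the musculoskeletal system, at an RMS of 0.78, with 833, 3453 and 284 FPKM in the C26 and 64.5, 47.3 and 47.0 in the control muscles. Both genes were highest in C26 replicate 2 and lowest among the C26 muscles in replicate 3.

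**Figure D2:**
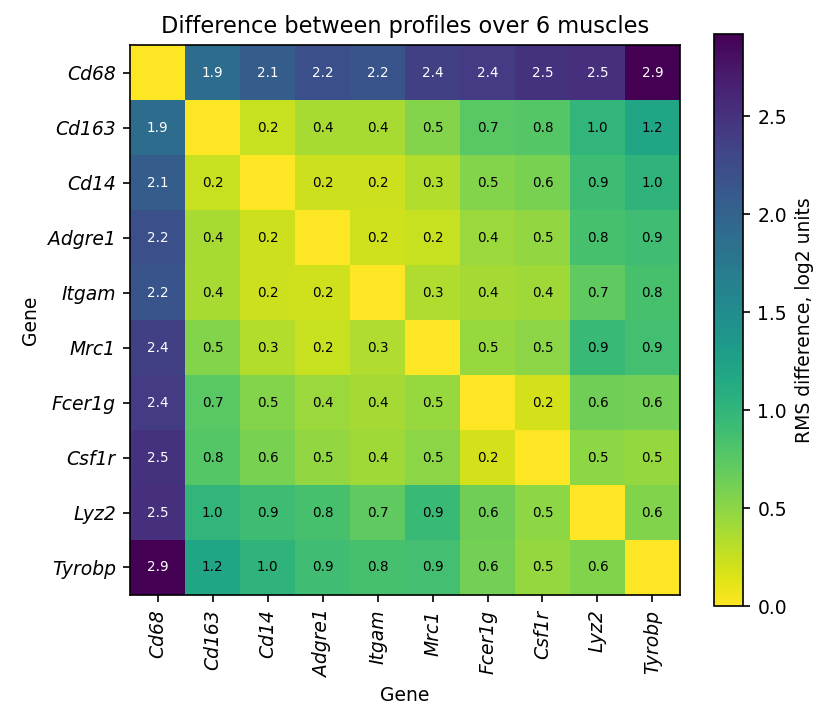
Root mean square difference in log2 units between the centred profiles of each pair of the 10 genes over the 6 muscles, written in each cell. The row of Cd68 holds 1.9 to 2.9, and all other cells are at most 1.2.

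Cd68 (Entrez gene ID 12514) occupies bases 69664213 to 69666153 of chromosome 11 in GRCm38 and is read from the minus strand. The gene of the translation factor Eif4a1 ends 782 bases upstream of it on the same strand. Eif4a1 had 171, 187 and 89.6 FPKM in the C26 and 58.1, 49.4 and 83.7 in the control muscles, so its values in C26 replicates 1 and 2 were close together where those of Cd68 were far apart. Whether reads that run through from Eif4a1 were counted for Cd68 was not tested.

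Promoters of 6 of the 10 genes were found in the RefSeq table of GRCm38.p6. The 250 bases before the gene start were searched on both strands for the core of the site of PU.1 (Spi1), the factor that macrophage promoters commonly carry a site for, with the letters GAGGAA. It was found for Cd68, Itgam and Mrc1, that is 3 of 6, and in 23.3% of all 32851 promoters of the table. It was not found in these windows for Fcer1g, Lyz2 and Cd163. The TATA box, TATAAA on the strand of the gene, was found in 0 of the 6 and in 7.59% of all. The 3 windows that hold the core are shown because Cd68 differed most among the markers while Itgam and Mrc1 stayed within their spread. They run 5′ to 3′ on the strand of the gene and end at the base before the RefSeq start, and capitals mark the core or its reverse complement.
Cd68, minus strand, chr11:69666171-69666420: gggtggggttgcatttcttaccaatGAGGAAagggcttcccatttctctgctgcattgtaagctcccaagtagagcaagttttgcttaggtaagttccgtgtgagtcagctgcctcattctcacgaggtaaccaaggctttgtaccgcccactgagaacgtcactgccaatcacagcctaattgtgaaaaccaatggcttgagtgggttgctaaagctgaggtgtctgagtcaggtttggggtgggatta
Itgam, plus strand, chr7:128062390-128062639: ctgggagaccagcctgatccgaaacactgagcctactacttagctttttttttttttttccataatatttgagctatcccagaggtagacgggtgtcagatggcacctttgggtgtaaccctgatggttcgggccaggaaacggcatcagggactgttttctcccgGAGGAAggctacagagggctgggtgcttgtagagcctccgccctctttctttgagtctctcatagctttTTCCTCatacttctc
Mrc1, plus strand, chr2:14229164-14229413: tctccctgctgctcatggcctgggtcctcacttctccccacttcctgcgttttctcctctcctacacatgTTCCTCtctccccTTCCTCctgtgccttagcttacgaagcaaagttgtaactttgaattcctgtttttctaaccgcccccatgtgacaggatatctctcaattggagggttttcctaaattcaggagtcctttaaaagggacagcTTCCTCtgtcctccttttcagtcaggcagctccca
Cd68 holds the core 1 time, starting at position -225 counted back from the gene start. Itgam holds it 2 times and Mrc1 3 times. A match of letters is no evidence of binding, and the 3 genes that hold it had unlike log2 fold changes of 3.40, 0.01 and -0.26.

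Tyrobp, the adaptor of TREM and other activating receptors of myeloid and NK cells, was the marker that fell. It had 3.97, 1.65 and 2.03 FPKM in the C26 and 6.96, 5.24 and 18.2 in the control muscles. The groups did not overlap, and control replicate 3 was 2.99 times the mean of the other controls. The log2 fold change was -1.46 (SE 0.45, 95% interval -2.54 to -0.37, adjusted p = 0.0482 from limma), a ratio of 0.364 on the scale of TPM plus 1, where the mean FPKM had a ratio of 0.251. Without control replicate 3 it was -1.0 (adjusted p = 0.0664 from limma). The call was lost in all 6 fits with single muscles removed, with adjusted p from 0.0518 to 0.141 (limma), and with the replicate number as a block (adjusted p = 0.0686 from limma). The direction was the same in every one of these fits.

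Fcer1g, the gamma chain that Fc receptors share, had 1.64, 1.79 and 0.72 FPKM in the C26 and 3.64, 1.68 and 4.23 in the control muscles. The groups overlapped by 1 value, and the log2 fold change was -0.74 (95% interval -1.5 to 0.01, adjusted p = 0.110 from limma). Csf1r, the receptor for Csf1 and Il34, had 3.04, 2.52 and 1.63 FPKM in the C26 and 4.94, 3.17 and 8.34 in the control muscles. Each deposited value of Csf1r was lower in C26 than in any control, although after scaling C26 replicate 1 and control replicate 2 met at a log2 value of 2.67. Its log2 fold change was -0.78 (95% interval -1.5 to -0.05, adjusted p = 0.0884 from limma). Csf1r and Fcer1g had the closest profiles of all 45 pairs, at an RMS of 0.19. Both were highest in control replicate 3, and without it their log2 fold changes were -0.50 and -0.57. Csf1r shares bases with Hmgxb3 on the opposite strand, and the strandedness of the libraries is not given in the sources used here.

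Lyz2, the lysozyme of macrophages and neutrophils, was the most abundant marker in control muscle. It had 44.1, 33.5 and 23.1 FPKM in the C26 and 39.1, 29.3 and 188 in the control muscles. The value of control replicate 3 was 5.49 times the mean of the other controls, which lay within the range of the C26 muscles. The log2 fold change of -0.66 (95% interval -2.21 to 0.88, adjusted p = 0.444 from limma) became 0.10 without that muscle (adjusted p = 0.784 from limma), so its direction rested on 1 library. The paralog Lyz1, between which and Lyz2 RSEM can split reads, showed the same high library, with 35.2 FPKM in control replicate 3 and 3.07 to 8.49 in the others.

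Among the scavenger and pattern receptors, Cd163, which takes up haemoglobin bound to haptoglobin, had 3.42, 3.01 and 1.34 FPKM in the C26 and 1.64, 1.33 and 1.76 in the control muscles. C26 replicates 1 and 2 lay above all controls and C26 replicate 3 lay among them. The log2 fold change was 0.65 (SE 0.27, 95% interval 0.008 to 1.29, adjusted p = 0.103 from limma), and without C26 replicate 3 it was 1.02 (adjusted p = 0.00481 from limma). Without control replicate 3 it was 0.68. The mannose receptor Mrc1 (CD206) had 1.71, 1.25 and 1.05 FPKM in the C26 and 2.86, 1.61 and 1.59 in the control muscles. Its groups overlapped, and the log2 fold change was -0.26 (95% interval -0.80 to 0.28, adjusted p = 0.393 from limma), or -0.40 without control replicate 3. Cd14, the co-receptor that hands lipopolysaccharide to Tlr4, had 2.56, 2.11 and 1.04 FPKM in the C26 and 2.20, 1.21 and 1.75 in the control muscles. Its log2 fold change was 0.24 (95% interval -0.40 to 0.87, adjusted p = 0.504 from limma), or 0.23 without control replicate 3.

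Adgre1, which encodes the F4/80 antigen, and Itgam, the alpha chain CD11b, were the least abundant. Adgre1 had 0.50, 0.46 and 0.12 FPKM in the C26 and 0.50, 0.41 and 0.46 in the control muscles. Itgam had 0.48, 0.42 and 0.13 FPKM in the C26 and 0.44, 0.12 and 0.66 in the control muscles. C26 replicate 3 was lowest of the C26 muscles for both, and the remaining values were interleaved. The log2 fold changes were -0.08 (95% interval -0.55 to 0.38) for Adgre1 and 0.01 (95% interval -0.57 to 0.59) for Itgam, with adjusted p of 0.751 and 0.981 (limma). Without control replicate 3 they were -0.10 and 0.16. An annotated gene, Gm49368, overlaps Itgam on the same strand, so RSEM could divide its reads.

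**Figure D3:**
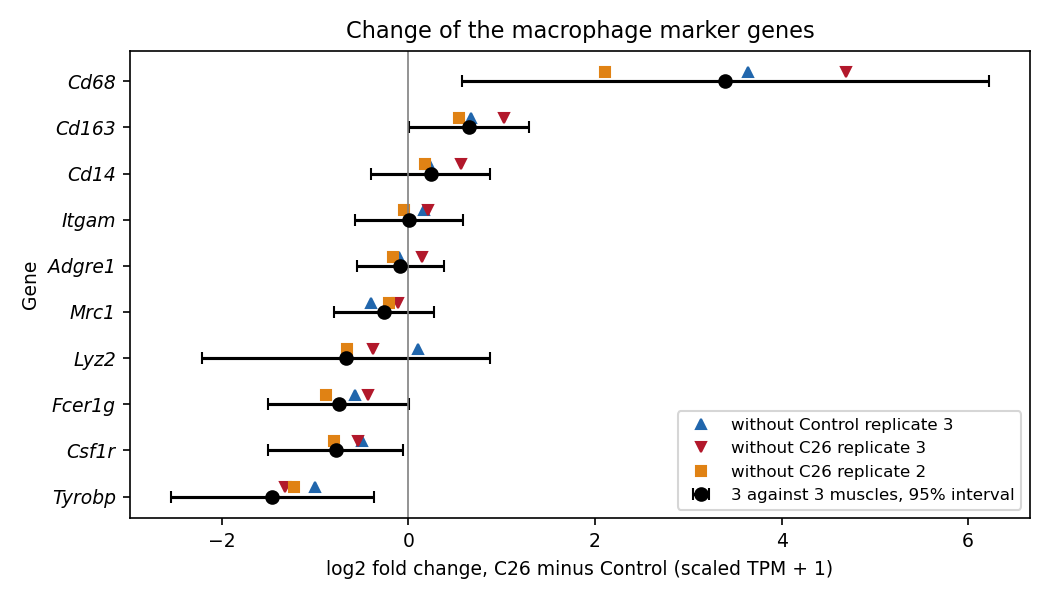
Log2 fold change of each of the 10 genes (C26 minus control, scaled TPM plus 1) with its 95% interval (black), and the same without control replicate 3, C26 replicate 3 or C26 replicate 2 (coloured symbols). The interval included 0 for 6 of the 10 genes, and the sign changed for Lyz2 without control replicate 3, for Adgre1 without C26 replicate 3 and for Itgam without C26 replicate 2.

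The libraries within a group were ordered alike across the markers. C26 replicate 3 was lowest of the C26 muscles for 9 of the 10 markers, Tyrobp being the exception, and for 46.9% of all genes. Control replicate 3 was highest of the controls for 7 of the 10, and for 45.6% of all genes. Control replicate 2 had the lowest FPKM of the controls for 9 of the 10 (8 after scaling), and for 49.6% of all genes. The summed level of the markers other than Cd68, in scaled TPM, was 109, 79.9 and 59.0 in C26 replicates 1 to 3 and 93.3, 74.6 and 325 in control replicates 1 to 3. The sums overlapped between the groups with and without control replicate 3.

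Cd163 and Cd68 moved most in the order of levels, Cd163 from the eighth place in control to the third in C26 muscles and Cd68 from the fourth to the first. By mean FPKM the control order was Lyz2 (85.4 ± 88.8, SD, n = 3), Tyrobp (10.1 ± 7.06), Csf1r (5.48 ± 2.63), Cd68 (4.09 ± 2.09), Fcer1g (3.18 ± 1.33), Mrc1 (2.02 ± 0.73), Cd14 (1.72 ± 0.50), Cd163 (1.58 ± 0.22), Adgre1 (0.457 ± 0.045) and Itgam (0.407 ± 0.272). Neighbors in this order overlapped in their values except Lyz2 with Tyrobp and Cd163 with Adgre1. In C26 muscles the order was Cd68 (96.0 ± 131), Lyz2 (33.5 ± 10.5), Cd163 (2.59 ± 1.10), Tyrobp (2.55 ± 1.24), Csf1r (2.40 ± 0.71), Cd14 (1.90 ± 0.78), Fcer1g (1.38 ± 0.58), Mrc1 (1.34 ± 0.34), Adgre1 (0.360 ± 0.209) and Itgam (0.343 ± 0.187), with the SD of 3 muscles. Both places rested on C26 replicate 2, since in C26 replicates 1 and 3 Lyz2 was above Cd68 and Tyrobp above Cd163. Of these neighbors Lyz2 with Cd163 and Mrc1 with Adgre1 did not overlap. The SD of Cd68 in C26 muscles exceeded its mean, as did that of Lyz2 in controls.

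Within each muscle the log2 level of a marker was also set against the median of the 10 markers, which is little touched by how a library was scaled. By this measure Cd68 lay 3.40, 6.61 and 2.02 above the median in the C26 and 0.47, 0.07 and 0.90 above it in the control muscles. Tyrobp lay 0.28 above the median on average in C26 and 1.60 above it in control muscles, and Fcer1g lay 0.39 below and 0.22 above it. Csf1r lay 0.24 above the median in C26 and 0.88 above it in control muscles. Cd163 lay 0.29 above it in C26 and 0.49 below it in control muscles, and Cd14 lay 0.05 and 0.42 below it. The groups did not overlap for these 6 markers, whereas they overlapped for Mrc1, Lyz2, Adgre1 and Itgam. Set against the same median, 25.7% of all genes did not overlap, but the markers themselves set that median, so nothing is read from the 6. These values are descriptions and were not tested.

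The ligands of Csf1r fell. Csf1 had 1.35, 1.12 and 2.23 FPKM in the C26 and 8.12, 4.11 and 6.15 in the control muscles, and no values overlapped. It fell by 1.44 on the log2 scale (SE 0.28) at an adjusted p of 0.0126 from limma. The call was lost without C26 replicate 1. Il34, named after its values were seen, had 1.16 to 1.90 FPKM with C26 tumors and 3.73 to 4.38 without, and by limma it fell by 0.94 on the log2 scale (adjusted p = 0.0130), but its call was lost without C26 replicate 1 or control replicate 1. Of 10 listed Csf1r ligands and macrophage transcription factors in the file, 4 fell and 2 rose, beside 14.5% and 19.4% of all genes. Their median log2 fold change was -1.10 (-0.66 without control replicate 3). With a muscle left out, 1 to 4 fell and 1 or 2 rose, fewest without C26 replicate 1 (1 and 1) and control replicate 1 (2 and 1). The factor Maf fell from 42.4 ± 6.43 to 8.63 ± 0.19 FPKM (SD, n = 3; log2 fold change -2.00, adjusted p = 0.0016 from limma). Cebpb rose by a log2 fold change of 2.06 and Cebpa fell by 2.74 on the log2 scale. With single muscles left out Cebpa was called in 1 of 6 fits, the one without control replicate 3 (-3.53). Both are C/EBP factors that fat cells also use. The PU.1 gene Spi1, named after its values were seen, did not pass (1.30, 0.86 and 0.81 FPKM in C26 and 3.46, 1.25 and 15.8 in control muscles). Whether Csf1 and Maf came from macrophages or from other cells of the muscle was not tested. Of 10 fibroblast markers 6 fell in the same muscles, beside 14.5% of all genes. Their median log2 fold change was -1.41, and their summed level was 516 to 916 scaled TPM with C26 tumors and 1099 to 1717 without. The fibroblast count was 3 without C26 replicate 1, C26 replicate 2, control replicate 1 or control replicate 2, and 3 with the replicate block (limma), and without control replicate 3 the median was -1.68.

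Among 20 genes of resident macrophages, 4 fell (Cbr2, Pf4, Cd209f and Gas6) and 0 rose by limma, beside 14.5% of all genes lower and 19.4% higher, and at an unadjusted p under 0.05 the counts were 8 and 1. The median log2 fold change was -0.38, beside -0.05 for all genes, and -0.37 without control replicate 3. With a muscle left out 1 to 3 fell, 1 without C26 replicate 2 or control replicate 1, and with the replicate block 2 fell. With quantile normalization 2 rose and 3 fell. An added constant of 0.1 gave 1 higher and 4 lower, and a trend in the prior variance 1 higher and 5 lower. The carbonyl reductase Cbr2 had 11.8, 7.79 and 9.80 FPKM in the C26 and 73.9, 40.1 and 49.0 in the control muscles. The fall was 2.16 on the log2 scale, adjusted p = 0.00373 from limma, called in 6 of 6 fits with a muscle left out. The chemokine Pf4 fell by 1.07 on the log2 scale and was called in 4 of those fits, without a call when C26 replicate 2 or control replicate 1 was left out. Cd209f, a lectin, and Gas6, a ligand of phagocytic receptors, were each called in 1 of them. The complement genes C1qa, C1qb and C1qc, which resident macrophages make and which were named after their values were seen, had log2 fold changes of -0.43, 0.04 and -0.16 and did not pass. In scaled TPM the sum of the 20 genes was 173 to 206 with C26 tumors and 258 to 388 without. A sum weighs abundant genes most, such as Cbr2 and Gas6, which both fell. Gas6 had 25.1 to 32.7 FPKM with C26 tumors and 48.9 to 50.8 without. Which cells these transcripts came from was not tested.

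In the main fit the partners of the ITAM adaptors did not pass in either direction. Of 13 Fc receptor and ITAM partner genes, 0 were called by limma, beside 33.8% of all genes. At an unadjusted p under 0.05, 1 was lower and 0 were higher. The median log2 fold change was -0.58, or -0.17 without control replicate 3. Without control replicate 2 it was -0.86, with 2 genes called lower. With an added constant of 0.1, a trend in the prior variance or a scaling without the 20 most abundant genes, 1 was called lower. The kinase Syk, named after its values were seen, had 0.97, 0.64 and 0.71 FPKM in C26 and 1.30, 0.67 and 13.3 in control muscles. The inhibitory Fc receptor Fcgr2b had 1.73 to 3.32 FPKM with C26 tumors and 1.77 to 8.21 without. The beta2 integrin list holds chains of the family of Itgam and also ligands and partners of these integrins. Of its 12 genes 10 were in the file, without the alpha chains Itgax and Itgad, which were not analysed here. Of these 10 genes 1, the adhesion ligand Icam2, fell, beside 14.5% of all genes. Its fall was 1.44 on the log2 scale (adjusted p = 0.0255 from limma). The call held in 3 of 6 when single muscles were left out, those without C26 replicate 3, control replicate 2 or control replicate 3. The median of this list moved from -1.06 to 0.04 without control replicate 3.

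**Figure D4:**
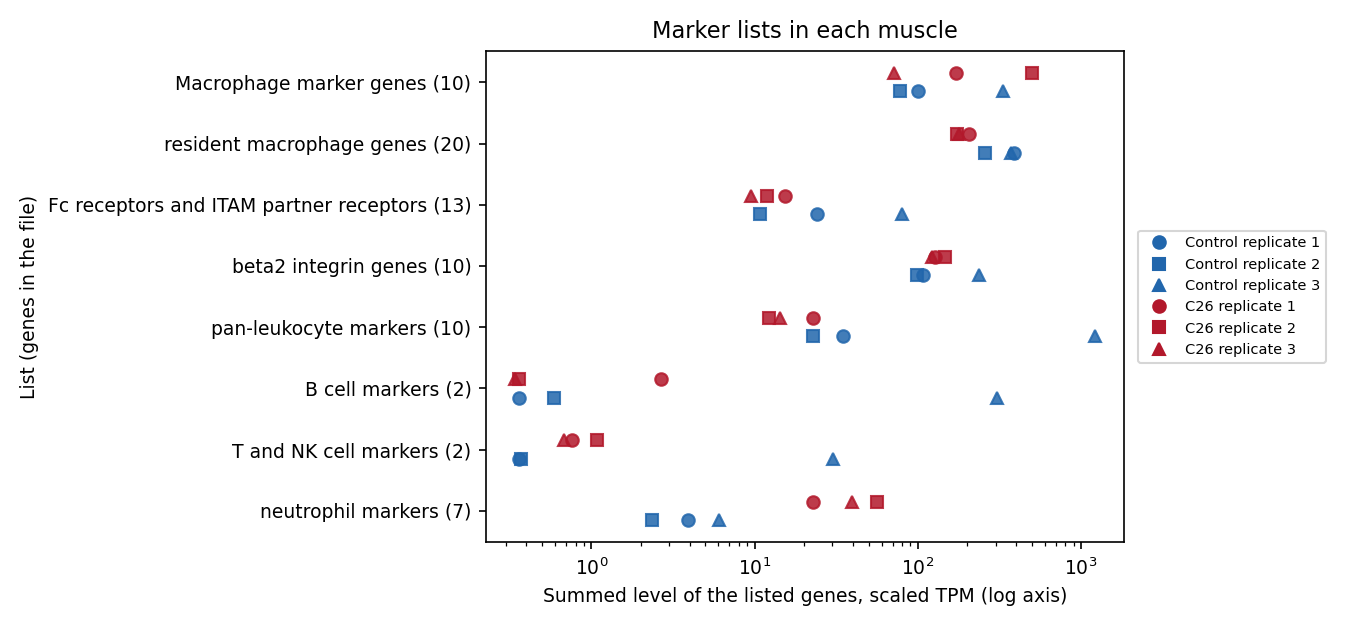
Summed level of the genes of 8 lists (log axis, scaled TPM) in each control (blue) and C26 (red) muscle, with the number of genes in the file. Pan-leukocyte, B cell and T and NK cell markers were highest in control replicate 3. The neutrophil sum was higher in every C26 muscle (22.8 to 56.4) than in every control (2.35 to 6.05). Of its 7 genes 3 (Lcn2, S100a8 and S100a9) were called, and the median log2 fold change of the 7 was 0.10.

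Of 15 lysozyme and phagolysosome genes, the surroundings of Cd68 and Lyz2, 4 rose (Ctsd, Lamp2, Gpnmb and Cd63) and 0 fell by limma, beside 19.4% and 14.5% of all genes, and at an unadjusted p under 0.05 the counts were 5 and 2. The protease Ctsd went from 280 ± 43.1 to 739 ± 70.4 FPKM (SD, n = 3; log2 fold change 1.62, adjusted p = 0.00355 from limma) and the lysosomal membrane protein Lamp2 rose by 1.45. Both were called in all 6 fits with a muscle left out, as was Gpnmb (1.38), whereas Cd63 (0.89) was called in 1. Muscle fibers and other cells have lysosomes too, and which cells these transcripts came from was not tested. The median log2 fold change of this list was 0.12, and without control replicate 3 it was 0.28, with 3 genes higher and 2 lower. The median was -0.09 with FPKM as deposited and -0.30 with quantile normalization.

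Of 17 genes of the Toll-like receptor pathway 3 rose and 1 fell, beside 19.4% and 14.5% of all genes, with a median log2 fold change of -0.12, or 0.11 without control replicate 3. The adaptor Ticam1 rose by a log2 fold change of 1.77 and the lipopolysaccharide-binding protein Lbp by 1.46, while the adaptor Tirap fell by 1.53 on the log2 scale, each called in all 6 fits with a muscle left out. The kinase Irak1 rose by 0.80 and was called in 2. Of 13 haem and iron genes, the surroundings of Cd163, 1 rose and 3 fell, beside 19.4% and 14.5% of all genes, with a median of -0.18. Without control replicate 3 the counts were 1 and 4 and the median -0.13. Haem oxygenase Hmox1 had 11.3, 10.5 and 8.99 FPKM in C26 and 6.68, 4.48 and 5.51 in control muscles (log2 fold change 1.03, adjusted p = 0.00651 from limma). The transferrin receptor Tfrc fell from 19.3 ± 5.20 to 2.05 ± 0.55 FPKM (SD, n = 3; log2 fold change -2.71, adjusted p = 0.00197 from limma). The biliverdin reductases Blvrb and Blvra fell by 1.48 and 0.83, Blvrb without a call when control replicate 1 was left out. Haptoglobin, Hp, the ligand that Cd163 binds with haemoglobin, had 0.94, 5.39 and 0.43 FPKM in C26 and 29.4, 24.6 and 3.95 in control muscles and did not pass (log2 fold change -2.68, adjusted p = 0.0659 from limma), while without control replicate 3 it was at -3.58 (adjusted p = 0.0207 from limma). Hp was named after its values were seen.

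Of 10 genes of the mannose receptor family and the scavenger receptors, 2 rose (Stab2 and Scarb2) and 2 fell (Mrc2 and Scara3), beside 19.4% and 14.5% of all genes, and the median log2 fold change was 0.04. Without control replicate 3 the counts were 3 and 2 and the median -0.01, and 1 rose without C26 replicate 1, C26 replicate 2 or control replicate 1. Stab2, a receptor for hyaluronan, had 5.20 to 5.98 FPKM with C26 tumors and at most 1.65 without (log2 fold change 1.67, adjusted p = 0.00171 from limma). Mrc2, the collagen-binding relative of Mrc1, fell by 1.10 and Scara3 by 1.09 on the log2 scale. These 3 were called in all 6 fits with a muscle left out and Scarb2 (0.77) in 3, without a call when C26 replicate 1, C26 replicate 2 or control replicate 1 was left out.

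Few markers of activation were in the file, which holds only genes above 0 in all 6 muscles. A gene at 0 in a single muscle is absent whatever its level in the others, so absence does not show a low level. Of 13 pro-inflammatory genes 4 were in the file, at no more than 3.32 FPKM, the value of Cd86 in control replicate 3, and 0 of the 4 were called by limma or had an unadjusted p under 0.05, with a median log2 fold change of -0.30, or -0.11 without control replicate 3. Of 13 genes of alternative activation 7 were in the file. Of these 4 fell (Retnla, Igf1, Ccl24 and, named after its values were seen, Cd209a) and 1, the transglutaminase Tgm2, rose. Among all genes 14.5% fell and 19.4% rose, and the median log2 fold change of the 7 was -0.79. With quantile normalization 2 of the 7 fell and 0 rose. Without control replicate 3 3 fell and 1 rose, the cytokine receptor Il4ra in place of Tgm2 and named after its values were seen, and 1 fell without C26 replicate 2 or control replicate 1. Retnla, a secreted protein of alternatively activated macrophages and also of fat tissue, had 6.12, 1.36 and 0.56 FPKM in C26 and 47.1, 16.3 and 18.9 in control muscles (log2 fold change -3.16, adjusted p = 0.0171 from limma). It was not called without C26 replicate 2 or control replicate 1. Igf1, a growth factor that many cells make, fell by 1.33 on the log2 scale and was called in all 6 fits with a muscle left out, Cd209a in 4, Ccl24 in 2 and Tgm2 in 1. Fat cell markers fell in the same muscles, 6 of 10, beside 14.5% of all genes. Their summed levels were 780 to 1219 scaled TPM with C26 tumors and 1158 to 8596 without. Their part in the fall of Retnla was not tested. The fat cell count was 9 without control replicate 3, 4 without C26 replicate 3 and 1 without control replicate 1. It was 0 without C26 replicate 1, C26 replicate 2 or control replicate 2.

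Of 10 monocyte genes and chemokines in the file, 1 rose and 2 fell, beside 19.4% and 14.5% of all genes. With a muscle left out 0 to 3 rose and 0 to 3 fell. The counts were 0 and 0 without C26 replicate 1 or 2, and 0 and 1 without control replicate 3. With an added constant of 0.1 or a trend in the prior variance 4 fell, and with quantile normalization 0 fell. The median log2 fold change was -0.47, but 0.36 over the genes with a mean TPM of at least 1. The monocyte receptor Ccr2 had 0.15 to 0.22 FPKM with C26 tumors and 0.48 to 1.32 without (log2 fold change -0.79, adjusted p = 0.0249 from limma), called in 2 of the 6 fits with a muscle left out. The chemokine Cx3cl1 fell by 0.50 and was called in 0 of them, and Gda rose by 1.29 and was called in 2. Ccl2, the main ligand of Ccr2 and named after its values were seen, had at most 0.20 FPKM with C26 tumors and 0.32 to 0.83 without and did not pass (adjusted p = 0.0538 from limma). At these low levels the added constant of 1 TPM makes the fold changes smaller than the ratios of the FPKM.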

How the data were processed

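RNA of 6 gastrocnemius muscles was sequenced by the authors with single-end reads of 50 bases on the BGISEQ-500 after rRNA removal. Per the methods, low-quality, adaptor and rRNA reads were discarded and the rest were aligned to GRCm38.p5 with bowtie2, and the authors deposited FPKM from RSEM, to 2 decimals under Entrez gene IDs. The submitters' processing notes name mm9, HISAT2 2.0.4, Bowtie2 2.2.5 and RSEM 1.2.12. All values of the 13363 genes exceed 0, so genes at 0 in any muscle are not in the file. Counts per gene were not analysed here, and single reads could not be read from the low FPKM (0.01 at least), so the depth is unknown.

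Symbols were found for 13327 IDs and not for 36. FPKM were rescaled to TPM, divided by TMM factors (30% of log ratios and 5% of levels trimmed; 0.903 to 1.08) and log2-transformed after adding 1; list sums are of this scaled TPM. Groups came from the labels. limma 3.58.1 under R 4.3.3 was fitted to all genes with Benjamini-Hochberg adjustment and called at 0.05. The fit was tested on simulated data. Figures were drawn with matplotlib 3.10.9.

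The 10 genes and the 21 other lists were chosen with earlier results of these data known. Named genes are the 10, up to 4 called genes per list with the largest changes (or the 2 most abundant), and the nearest profiles with a mean log2 level of at least 2; Il34, Spi1, Syk, Hp, Ccl2, Cd209a, Il4ra, C1qa, C1qb, C1qc, Lyz1, Eif4a1, Csf3r, Cxcr2, Mmp8 and Mmp9 were named after their values were seen. Alternatives were a pseudocount of 0.1, a floor of 1 on the mean TPM, no TMM factors, the deposited FPKM, quantile normalization, a replicate block, a trend in the prior variance, each muscle left out, and, added after seeing the data, a scaling without the 20 most abundant genes. Gene positions are of GENCODE M21 (GRCm38) and promoters of RefSeq (GRCm38.p6).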

Additional observations from a re-analysis of the deposited data

How the results depend on the processing

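The call of Tyrobp as lower, 1 of the 10 markers, became 0 without TMM factors, with the deposited FPKM, with quantile normalization and with the replicate block, and it remained with the other 4 alternatives that kept all muscles. With quantile normalization 1 marker, Cd163, was higher in place of 0. With a muscle left out the markers called higher numbered 0 to 2 (2, Cd68 and Cd163, without C26 replicate 3), those called lower 0, and those without overlap 2 to 5. Over all genes 2590 were higher and 1931 lower; these became 1678 higher with FPKM as deposited and 1131 to 3311 higher and 669 to 2160 lower with a muscle left out. FPKM as deposited also moved the median change over all genes from -0.05 to -0.14 on the log2 scale, with 2504 lower. Directions near 0 reversed. With quantile normalization Mrc1 was at 0.079 and Adgre1 at 0.26, and with FPKM as deposited Itgam was at -0.058. With a muscle left out Lyz2 lay between -1.11 and 0.10, Adgre1 between -0.20 and 0.15 and Itgam between -0.19 and 0.21. The cause was not tested. With the replicate number as a block, 0 markers were called and 1236 genes were lower, and fewer calls were made for fibroblast (6 to 3), resident macrophage (4 to 2), red cell (4 to 2), endothelial (2 to 1), mast and dendritic (2 to 1) and lower monocyte genes (2 to 1). Higher monocyte genes went from 1 to 2, higher Toll-like receptor genes from 3 to 2, higher genes of the Csf1r list from 2 to 1, lower haem and iron genes from 3 to 4 and Tgm2 from 1 call to 0. Deviations of same-numbered muscles from their group means correlated at -0.04, -0.08 and -0.11 over genes. Those of differently numbered muscles correlated at -0.10 to 0.13. Deviations from a mean of 3 are tied to each other, so these values neither show nor exclude a pairing by number. Since the depth is unknown, the counting error of the markers under 1 FPKM, Adgre1 and Itgam, could not be given.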

Other observations

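Of 7 neutrophil markers in the file 3 rose, beside 19.4% of all genes. Each of the 3 was called in all 6 fits with a muscle left out (limma). The median log2 fold change of the 7 was 0.10, or 0.19 without control replicate 3. The calprotectin genes S100a8 and S100a9 had 3.28 to 3.96 and 2.85 to 3.07 FPKM in C26 muscles and 0.20 to 1.46 and 0.14 to 1.14 in controls, with log2 fold changes of 1.92 and 1.86. The siderophore-binding Lcn2, which other tissues make too, had 5.59, 25.7 and 13.4 FPKM in C26 and 0.31, 0.23 and 0.93 in control muscles (log2 fold change 3.80, adjusted p = 0.00519 from limma). The remaining 4 of the 7, named after their values were seen (Csf3r, Cxcr2, Mmp8 and Mmp9), had at most 0.84 FPKM in any muscle and were not called. Of 4 red cell markers in the file 4 rose, beside 19.4% of all genes, with a median log2 fold change of 1.21. With a muscle left out 1 to 4 were called: 1 without C26 replicate 1 or control replicate 1 and 2 without control replicate 2 or 3. With quantile normalization or the replicate block the count was 2. The globin Hba-a1 had 362 to 675 FPKM with C26 tumors and 191 to 288 without. The groups' summed red cell levels, 1053 to 2248 and 475 to 761 scaled TPM, did not overlap.

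The chymase genes Mcpt4 and Cma1 were the 2 genes called among 9 dendritic and mast cell markers, beside 14.5% of all genes lower. Their log2 fold changes were -1.81 and -1.12 (adjusted p = 0.00409 and 0.0249 from limma). The median log2 fold change of the 9 was -0.50, or -0.37 without control replicate 3. Mcpt4 was called in 6 of the 6 fits with a muscle left out and Cma1 in 3, without a call when C26 replicate 1, control replicate 1 or control replicate 3 was left out. Of 10 endothelial markers, with a median log2 fold change of -0.27, 2 fell, beside 14.5% of all genes. Kdr fell by 0.83 and Emcn by 0.50 on the log2 scale, called in 2 and 1 of the fits with a muscle left out. The endothelial count was 4 without control replicate 3, 1 without C26 replicate 3 and 0 without each of the other muscles. The 2 T and NK cell markers in the file, Cd4 and Zap70, had 10.5 and 10.3 FPKM in control replicate 3 and at most 0.10 and 0.61 in the other muscles. Of 10 fiber markers 0 were called by limma, 1 was lower and 0 were higher at an unadjusted p under 0.05, and their median log2 fold change was -0.04. With FPKM as deposited 4 were lower (median -0.26), 2 were lower without C26 replicate 3, and with quantile normalization 1 was higher.

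The genes outside the markers whose centred log2 profile was nearest to the mean of the 10 markers were Tmem185b (RMS 0.12), Gm40363 (0.12) and Zdhhc18 (0.12). Nearest to single markers were Fam43a for Csf1r (0.05), Hsd3b7 for Mrc1 (0.08), Ncoa5 for Cd163 (0.07), Sting1 for Lyz2 (0.06), Zbtb14 for Adgre1 (0.05), Tmem185b for Itgam (0.06), Crlf2 for Tyrobp (0.18), Pgghg for Fcer1g (0.17) and Fgl2 for Cd14 (0.05). All of these likenesses rest on 6 muscles and are given as descriptions. Sting1 had 12.1 FPKM in control replicate 3 and 1.02 to 2.50 in the other muscles, the same high library as Lyz2.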
